A study of Mus musculus with 115 samples.

Results

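The libraries described here are prostate RNA-seq libraries from transgenic mice, sorted into a proliferative side rich in chromogranin A and a quiet side poor in it. Both sides were chosen from the measured levels of 2 genes, Mki67, a marker of cycling cells, and Chga, the chromogranin A of dense-core granules. Side A holds the libraries with Mki67 at 30 TPM or more and Chga at 10 TPM or more, and side B those with Mki67 under 10 TPM and Chga under 1 TPM. Of all libraries of the series, 31 fell on side A, 58 on side B and 26 on neither, which leaves none out. TPM is the unit the authors deposited, a share of transcripts scaled so that every library sums to the same total. Because measured values chose the sides, everything that sets side A against side B below is a description with no test, and the levels of Mki67 and Chga are no finding.

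The series asked which genes modify prostate tumors in a cross of TRAMP mice with the wild-derived strain WSB/EiJ. All libraries carry the labels (TRAMP x WSB/EiJ) F2 and Transgene positive, so both sides share that genotype, and the labels give no age, treatment or batch. TRAMP mice express the SV40 T antigens from the probasin promoter, which is driven by androgen in prostate epithelium, so the transgene itself depends on the state of the cells. By the study's methods, RNA of small prostates came from the ventral prostate, and since no label marks those libraries, the region sampled and the side cannot be told apart.

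Neuroendocrine cells of the prostate store peptides in dense-core granules built from granins, and they share many genes with neurons. The T antigens bind the retinoblastoma protein and p53, and retinoblastoma protein normally holds back E2F factors, which drive genes of DNA replication and mitosis. Luminal cells, in contrast, secrete seminal proteins under control of the androgen receptor and need a large machinery for folding and export of proteins.

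At the thresholds, the A library nearest to both limits was W4419, with Mki67 at 31.99 and Chga at 21.2 TPM. Just outside A stood W370, with Mki67 at 20 and Chga at 115.2 TPM, and W1790, with Mki67 at 72.9 and Chga at 2.55 TPM. Inside B, the highest Mki67 was 9.21 TPM, in W4508, and the highest Chga 0.77 TPM, in W4226. Just outside B stood W4454, with Mki67 at 10.1 TPM, and W5003, with Chga at 1.19 TPM. A gap in Chga from 2.55 to 21.2 TPM therefore lay between the libraries with Mki67 over 30 TPM that entered A and those that did not.

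**Figure D1:**
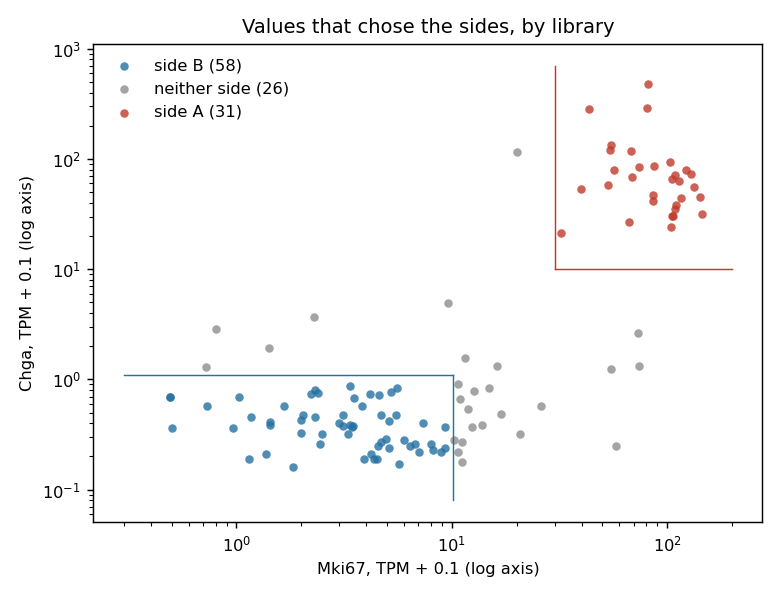
Mki67 against Chga in each library, in TPM plus 0.1 on log axes, with a point per library colored by side. The 31 libraries of side A lie above both limits, the 58 of side B below both, and 26 meet neither rule.

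The label of side A as neuroendocrine was checked on Chgb, a granin the rule did not use, and that of side B as differentiated prostate on Tgm4, a transglutaminase secreted by the prostate. The lowest, median and highest Chgb were 9.49, 40.6 and 292 TPM in A and 0, 0.035 and 0.6 TPM in B, a difference of medians of 5.33 on the log2 scale of TPM plus 1. All 31 libraries of A stood above every library of B. For Tgm4 the lowest, median and highest were 0.77, 1.72 and 2469 TPM in A and 0.64, 8152 and 16895 TPM in B, a difference of -11.55. The ranges overlapped at both ends, since a few libraries of each side stood apart from the rest.

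On side B, the markers of W1154 go against the label. It had Tgm4 at 0.64, Hoxb13 at 0.02 and Defb50 at 0.07 TPM, and all 6 prostate genes checked were under 1 TPM. Its epithelial keratin Krt8 was 109.97 TPM, and its leading gene was Mucl2, a mucin-like gene, with 23.9% of all TPM. No cell type is assigned to this library. Another 4 libraries of B had Tgm4 under 100 TPM, W4414, W4183, W4548 and W4078 with 12.2, 19.5, 23.8 and 75.4 TPM, but kept Hoxb13 between 21.2 and 138 TPM.

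On side A, some libraries held prostate secretory RNA beside the granins. W4517 had Tgm4 at 2469 TPM and W4419 at 195 TPM, while the next, W1462, had 18.7 TPM. In W4419, Defb50 and Msmb, secreted products of the prostate, stood at 4984 and 1952 TPM. W4437 also held both, at 3059.9 and 1184 TPM, with Tgm4 at 1.86 TPM. Results are therefore also given without W1154, W4517 and W4419, called the 3 libraries below. That choice was made after the values were seen, rests on Tgm4 and, for W1154, the other prostate genes checked, and keeps W4437. Calls of prostate genes as lower without the 3 libraries follow in part from it. In bulk samples, fewer cells of a type and less RNA per cell cannot be told apart. The labels W7822 and W78022, which are nearly alike, are both on side B, and no 2 libraries held identical values. The study's text counts fewer prostates than the series has libraries, so that each library is a mouse of its own rests on the labels.

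The libraries also differed in composition. Rn7sk, the small nuclear RNA that holds a transcription elongation factor, took 16.1% to 39.8% of TPM in A, with a median of 30.3%, and 7.62% to 24.2% in B, with a median of 12.4%. Rn7s1 and Rn7s2, which encode the RNA of the signal recognition particle, together took 21.2% to 46.5% in A, with a median of 30.5%, and 29.9% to 65.96% in B, with a median of 46.9%. These non-coding RNAs thus filled much of each library, and their shares differed in opposite directions while the ranges overlapped. The 20 genes with the most TPM over all libraries, a fixed set, took a median of 65.8% of TPM in A and 68.2% in B. Genes at 1 TPM or more numbered 12862 to 15435 in A, with a median of 14213, and 10358 to 15824 in B, with a median of 12419. Since TPM is a share, these differences enter every other gene's value. The median difference of all genes compared was 0.23 in the deposited TPM and -0.13 after median-of-ratios scaling, so differences below are to be read against 0.23.

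Far more genes stood apart as higher than as lower in A. The comparison took the 14171 autosomal genes with a mean of 1 TPM or more. A gene is called separate when the ranges of the 2 sides do not overlap and the medians differ at least 2-fold. By that rule, 882 genes (6.22%) were higher in A and 8 (0.0565%) were lower. By the medians alone, 3458 genes (24.4%) were at least 2-fold higher and 2172 (15.3%) at least 2-fold lower. Both sides were chosen on Mki67 and Chga, so nothing is read from these shares.

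The count of separate genes lower in A rested on a few libraries. It was 19 (0.134%) without W1154, beside 890 (6.28%) higher. Without W4165, a B library in which the fixed set of 20 genes took 81.8% of TPM, it was 13. It was 14 without W4517, 37 without W4419 and 72 (0.508%) without both, beside 1250 (8.82%) higher. Leaving out all of the 3 libraries, 1257 genes (8.87%) were higher and 214 (1.51%) lower, while the 2-fold counts were 3520 (24.8%) and 2287 (16.1%). With W4437 left out as well, 1265 (8.93%) were separate and higher and 362 (2.55%) separate and lower. The balance of the 2-fold calls also depended on scaling. Of the genes past 2-fold, 61.4% were higher in A in the deposited TPM and 41.9% after median-of-ratios scaling, with 2328 higher and 3228 lower. After that scaling, 723 genes were separate and higher, of which 653 were among the 882, and 273 were separate and lower, of which 4 were among the 8. With the 20 leading genes taken out of the total of TPM, 1242 were separate and higher, of which 863 were among the 882, and 21 were separate and lower, of which 3 were among the 8.

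The separate gene with the largest difference was Ddc (ENSMUSG00000020182, chr11:11814101-11898144), the decarboxylase that makes dopamine and serotonin. Its lowest, median and highest values were 6.57, 123 and 493 TPM in A and 0, 0.41 and 4.26 TPM in B, a difference of 6.46. Every A library stood above every B library, although the closest values, 6.57 TPM in A and 4.26 TPM in B, were not far apart. Hist3h2ba (ENSMUSG00000056895, chr11:58948920-58949533), a histone H2B gene, had 133, 304 and 502 TPM in A and 0.23, 3.28 and 17.5 TPM in B, a difference of 6.16. Its medians were the highest of these leading genes on both sides.

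Of the other 8 leading genes, several are known from neurons. Elavl4 (ENSMUSG00000028546, chr4:110203722-110351909), an RNA-binding protein of neurons, had 7.09, 54.3 and 101.1 TPM in A and 0, 0.045 and 0.41 TPM in B, a difference of 5.73. Stmn3, a stathmin that destabilizes microtubules, had medians of 66.1 and 0.13 TPM and a difference of 5.89. Tagln3, a neuronal relative of transgelin, had medians of 61.6 and 0.235 TPM and a difference of 5.66. Crmp1, which relays signals that guide axons, had medians of 40 and 0.17 TPM and a difference of 5.13. Snap25, Chgb, Scg5 and Sox11 completed these 10 genes and are described with their lists.

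Among the 8 separate genes lower in A, Copz2, Serp1 and Srpr have roles tied to the endoplasmic reticulum (ER). They were grouped by role after the values were seen, with no list and no test. Copz2 (ENSMUSG00000018672, chr11:96849870-96861203), a subunit of the coat of vesicles between Golgi and ER, had 0.07, 0.75 and 15.3 TPM in A and 16.8, 38.9 and 79.1 TPM in B, a difference of -4.51. Serp1 (ENSMUSG00000027808, chr3:58519817-58525892), an ER membrane protein induced by stress, had 9.01, 15.1 and 41.7 TPM in A and 50.4, 89.4 and 159 TPM in B, a difference of -2.49. Srpr (ENSMUSG00000032042, chr9:35200175-35247973), the receptor subunit that docks the signal recognition particle, had 7.70, 15.98 and 34.5 TPM in A and 34.95, 76 and 123 TPM in B, a difference of -2.18. For Srpr the sides came close to touching, with 34.5 TPM as the highest of A and 34.95 TPM as the lowest of B.

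The other 5 had varied roles. Tc2n (ENSMUSG00000021187, chr12:101645443-101718523), which carries tandem C2 domains, had 0.12, 0.29 and 5.07 TPM in A and 5.79, 16.1 and 34.3 TPM in B, a difference of -3.73. Nudt22, a Nudix hydrolase, had medians of 2.56 and 31.7 TPM and a difference of -3.20. For Kyat3, a kynurenine aminotransferase, the medians were 0.29 and 7.83 TPM and the difference -2.77. Trabd had medians of 9.01 and 46.6 TPM, a difference of -2.25, and Il1rl2, a receptor for interleukin-36 cytokines, had 0.28 and 3.62 TPM, a difference of -1.85. Leaving libraries out cannot make ranges overlap, so that all 8 stayed separate without the 3 libraries is no support. Only 3 and 4 of them stayed separate under the 2 other scalings, as given above.

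Without the 3 libraries, the 10 separate genes with the largest differences toward B had varied roles, and 3 of them were contractile. Ehf, an ETS factor of epithelia, led with a difference of -7.38, and its values with every library in were 0.06, 0.27 and 79.2 TPM in A and 28.9, 196 and 354 TPM in B. Prdx6, an antioxidant peroxiredoxin, had 9.36, 18.95 and 659 TPM in A and 31.04, 2413 and 4609 TPM in B, and a difference of -6.97 without the 3 libraries. For Ehf and Prdx6, 28 and 24 A libraries were under the lowest of B, and 30 for each once W1154 was left out. Man1a, a mannosidase of the Golgi, had -6.70 without the 3 libraries, Atp12a, a proton and potassium pump, -6.02, and Fcgbp, a protein of mucus, -5.88. Fkbp11, a prolyl isomerase of the ER, had -5.70 and Tst, the sulfurtransferase rhodanese, -5.65. Cnn1 at -6.39, Tpm2 at -5.70 and Acta2 at -5.55 belong to the contractile apparatus of smooth muscle.

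**Figure D2:**
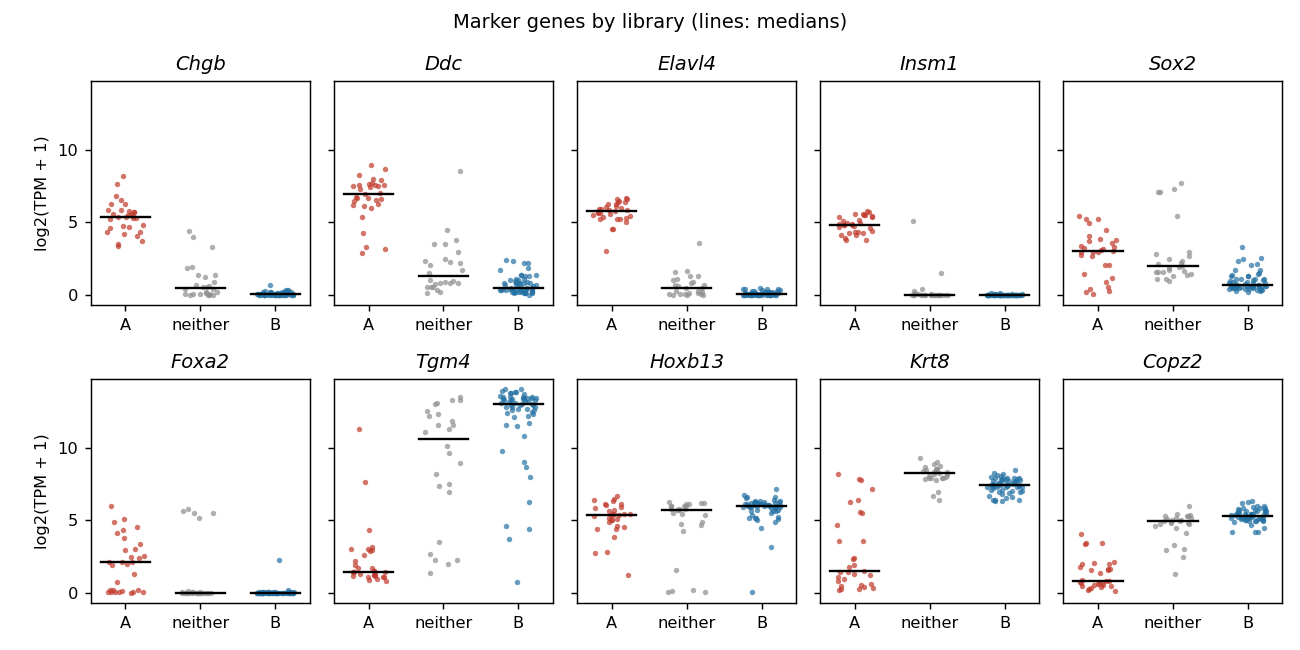
Levels of marker and leading genes as log2 of TPM plus 1, with a point per library, a line at each median, and side A, neither side and side B set beside each other. Chgb and Ddc do not overlap between the 31 libraries of A and the 58 of B, while Tgm4 overlaps through a few libraries of each side.

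The promoters of Ddc and Elavl4, and of Copz2 and Tc2n, are shown because these genes are among the separate genes that set the sides furthest apart in each direction. A promoter was matched for all 8 separate genes lower in A and for 634 of the 882 higher. The sequences are from RefSeq on GRCm38.p6, from 250 bases before to 50 bases after the start, written 5′ to 3′ on the strand of the gene. Capitals mark every word, on either strand, of 7 motifs searched. These are the E2F word TTTCGCGC, the cell cycle homology region (CHR) word TTTGAA, the CCAAT box CCAAT, the E-box CAGCTG, the FOXA word TGTTTAC, the hormone receptor word TGTTCT, and CCACG, a word of the ER stress element. No motif's word contains another's. A match is a description, not a site or a cause.
Ddc (chr11:11898095-11898394, minus strand): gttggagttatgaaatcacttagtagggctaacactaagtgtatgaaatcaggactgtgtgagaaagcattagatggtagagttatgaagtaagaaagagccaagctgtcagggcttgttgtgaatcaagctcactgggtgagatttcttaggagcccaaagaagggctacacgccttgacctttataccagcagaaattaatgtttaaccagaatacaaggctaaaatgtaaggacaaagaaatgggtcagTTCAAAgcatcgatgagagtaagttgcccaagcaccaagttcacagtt
Elavl4 (chr4:110351862-110352161, minus strand): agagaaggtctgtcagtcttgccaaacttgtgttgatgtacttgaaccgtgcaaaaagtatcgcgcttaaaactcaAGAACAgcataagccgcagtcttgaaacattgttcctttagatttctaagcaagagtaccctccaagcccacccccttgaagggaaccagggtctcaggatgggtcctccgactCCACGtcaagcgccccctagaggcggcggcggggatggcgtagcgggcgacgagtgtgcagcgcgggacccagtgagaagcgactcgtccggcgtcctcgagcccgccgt
Copz2 (chr11:96849626-96849925, plus strand): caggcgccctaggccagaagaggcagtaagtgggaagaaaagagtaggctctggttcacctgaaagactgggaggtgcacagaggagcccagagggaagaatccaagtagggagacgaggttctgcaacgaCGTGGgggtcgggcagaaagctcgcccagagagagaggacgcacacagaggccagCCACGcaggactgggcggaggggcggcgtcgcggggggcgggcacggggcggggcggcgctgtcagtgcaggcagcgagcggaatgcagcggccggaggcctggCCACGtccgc
Tc2n (chr12:101718474-101718773, minus strand): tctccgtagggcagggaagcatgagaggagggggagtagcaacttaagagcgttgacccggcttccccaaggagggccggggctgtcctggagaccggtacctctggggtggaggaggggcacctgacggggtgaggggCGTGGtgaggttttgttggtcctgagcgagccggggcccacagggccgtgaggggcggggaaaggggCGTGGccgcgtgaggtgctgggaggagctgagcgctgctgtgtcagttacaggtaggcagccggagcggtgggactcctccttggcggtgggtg
In the Ddc promoter the 1 word found was of the CHR, on the opposite strand and beginning 2 bases after the start. Elavl4 held a hormone receptor word and a CCACG word. Copz2 held 3 CCACG words and Tc2n 2, all in either orientation, and none of the other motifs.

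Cell cycle genes, which the rule used only through Mki67, were higher in A throughout. Without Mki67, all 24 genes of the proliferation list had medians at least 2-fold higher, 17 of them separate, with a median difference of 3.18 beside 0.23 for all genes. The counts of this and the other lists are to be read beside the 24.4% and 15.3% of all genes that were at least 2-fold higher and lower. Counts of separate genes are to be read beside 6.22% higher and 0.0565% lower, or 8.87% and 1.51% without the 3 libraries. With Mki67 the median was 3.23. Top2a (ENSMUSG00000020914, chr11:98992943-99024189), the topoisomerase that untangles DNA before mitosis, had 96.2, 227 and 357 TPM in A and 1.27, 9.62 and 25.7 TPM in B, a difference of 4.42. The lowest A library held several times the level of the highest B library. For Cdk1, the kinase that starts mitosis, values were 67.9, 126 and 226 TPM in A and 0.76, 9.44 and 28.5 TPM in B, a difference of 3.61. No library of A overlapped B here either.

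Differences varied among mitotic and among replication genes. The mitotic cyclins Ccna2 and Ccnb1 had differences of 4.30 and 4.19, Birc5, the survivin gene, 4.19, and Foxm1, a factor that drives mitotic genes, 3.78. All 4 were separate. Other mitotic genes differed less, with 2.98 for Aurka, 2.86 for Plk1 and 2.63 for Ccnb2, the last not separate. Rrm2, which supplies nucleotides for replication, had 4.31, and Ccne2, a cyclin of its start, 3.44. The helicase genes Mcm2, Mcm3, Mcm5 and Mcm6 had differences of 2.56, 2.58, 2.44 and 2.17, and Pcna, the sliding clamp of replication, 2.15. None of the helicase genes or Pcna was separate, and for Mcm6 only 17 of 31 A libraries stood above the highest of B. Without Mki67, the summed list had 634, 1382 and 2081 TPM as lowest, median and highest in A and 27.6, 139 and 396 TPM in B.

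The promoters of Top2a and Cdk1 are shown because both genes are separate members of the list and their promoters hold several of the words. They were chosen after the values were seen.
Top2a (chr11:99024140-99024439, minus strand): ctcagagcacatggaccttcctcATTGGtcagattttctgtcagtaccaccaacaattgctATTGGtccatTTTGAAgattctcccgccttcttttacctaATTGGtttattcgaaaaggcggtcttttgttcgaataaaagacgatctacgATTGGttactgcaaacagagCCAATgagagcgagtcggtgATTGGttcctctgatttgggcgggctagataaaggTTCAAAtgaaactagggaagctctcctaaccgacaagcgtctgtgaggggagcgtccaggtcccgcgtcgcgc
Cdk1 (chr10:69352863-69353162, minus strand): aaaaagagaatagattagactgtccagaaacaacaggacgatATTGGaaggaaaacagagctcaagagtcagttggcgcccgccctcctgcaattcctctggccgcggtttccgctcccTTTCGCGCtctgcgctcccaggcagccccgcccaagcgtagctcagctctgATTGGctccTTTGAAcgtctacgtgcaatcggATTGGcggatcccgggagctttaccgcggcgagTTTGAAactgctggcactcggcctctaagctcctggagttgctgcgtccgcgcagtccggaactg
Top2a held 6 words of the CCAAT box and 2 of the CHR, the nearer of which begins 23 bases before the start. Cdk1 held 3 of the CCAAT box, 2 of the CHR, the nearer 15 bases before the start, and 1 of E2F, 131 bases before it. A promoter was matched for 21 of the 25 genes in the list. Of these, 16 (76.2%) held CCAAT, 9 (42.9%) the CHR word and 4 (19%) an E2F word. Over all 27025 genes with a promoter, the shares were 37.9%, 18.1% and 2.32%, and over the 10076 of the genes compared that matched, they were 38.7%, 11.9% and 4.03%. Of the 10 matched promoters of the synaptic list described below, 40% held CCAAT, 40% the CHR word and 0% an E2F word. Among the 882 separate genes higher in A, 45.4% of the 634 matched held CCAAT, 22.4% the CHR word and 7.73% an E2F word. The E-box was held by 16.6% of them, beside 15.1% of the genes compared, the FOXA word by 2.37% beside 2.46%, and the hormone receptor word by 10.4% beside 12.2%. The CCACG word was held by 44.3% of the 634, beside 47% of the genes compared.

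**Figure D3:**
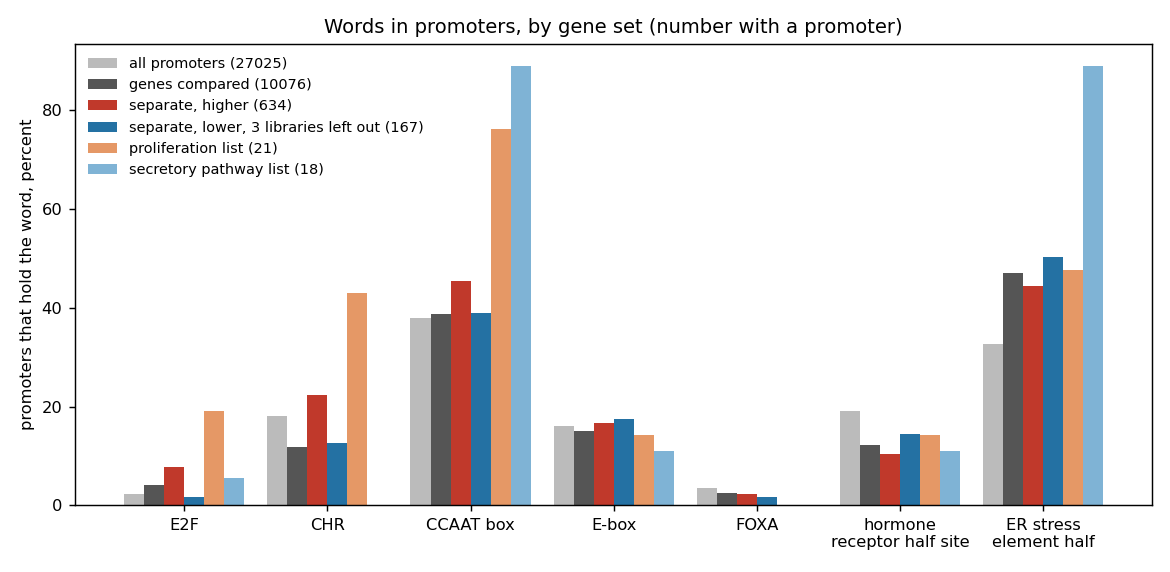
Share of promoters, in percent, that hold a word of each of 7 motifs, with a bar for each group of genes. CCAAT is held by 76.2% of the proliferation promoters and by 88.9% of those of the ER folding list, beside 37.9% of all promoters.

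In the pathway of the retinoblastoma protein and p53, which the transgene product binds, 16 of 23 genes were at least 2-fold higher in A, 2 at least 2-fold lower and 5 separate, with a median difference of 1.56 (1.005 to 1.75 over the alternatives). Rb1, the retinoblastoma gene, had 11.3, 23.2 and 34.5 TPM in A and 1.70, 4.26 and 14.6 TPM in B, a difference of 2.21. The sides overlapped in Rb1, with 25 of 31 A libraries above the highest of B. E2f8 and E2f7, repressors of the E2F family, and E2f2, an activator, were separate with differences of 3.29, 2.996 and 2.40. Cdkn1b, which encodes the inhibitor p27, and Cdk4, the kinase that cyclin D activates, were the other 2 separate genes, with 1.95 and 1.56.

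Inhibitors and partners of the D-type kinases divided by direction. Cdkn2c and Cdkn1c, inhibitors of cyclin-dependent kinases, had differences of 2.45 and 2.87, and Cdkn2a had 1.61. Ccnd1, the cyclin D1 gene, had 0.16, 1.08 and 8.55 TPM in A and 4.17, 12.1 and 72.1 TPM in B, a difference of -2.66. In 28 of 31 A libraries it was under the lowest library of B. Among genes that p53 induces, Ccng1 had a difference of -1.76, Cdkn1a 1.09, Mdm2 0.38 and Bax 0.75, while Trp53 itself had 1.34. These targets of p53 therefore did not share a direction.

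Chromatin genes stood higher in A as well. Of 12 genes of the polycomb repressive complex and DNA methylation, 8 were at least 2-fold higher, none lower and 5 separate, with a median difference of 1.73 (1.23 to 1.95 over the alternatives). Ezh2, the methyltransferase of the complex, had 24.3, 52.5 and 83.6 TPM in A and 1.32, 3.83 and 14.6 TPM in B, a difference of 3.47. Its partner Suz12 was separate with 2.14, whereas Eed and the alternative subunit Ezh1 had 0.26 and 0.20, close to the 0.23 of all genes. Dnmt1, which copies methylation at replication, and Dnmt3a, which sets it anew, were separate with 2.53 and 2.26. Tet1, which oxidizes methylcytosine, was separate with 2.68, and Uhrf1, a partner of Dnmt1, had 3.19 and 30 of 31 A libraries above the highest of B.

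Granins stood higher in A than in B beyond the Chga of the rule. Without Chga, of 11 genes for granins and for processing of prohormones that passed the filter on low values, of 12 listed, 9 were at least 2-fold higher, none lower and 4 separate, with a median difference of 1.85. As 8 of the 11 had B medians under 1 TPM, they passed the filter through side A, yet of all 12 listed 9 were at least 2-fold higher too. With Chga the median was 2.04 (1.95 to 4.42 over the alternatives). Scg3, a granin that sorts others to granules, had 7.75, 26.1 and 41.6 TPM in A and 0.01, 0.07 and 0.58 TPM in B, a difference of 4.66. Scg5, the chaperone of a prohormone convertase, had 15.96, 45.1 and 103.3 TPM in A and 0.02, 0.235 and 3.13 TPM in B, a difference of 5.22. All A libraries lay above all B libraries for both.

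The enzymes that cut and finish prohormones were less uniform. Pcsk1, a convertase, had 0.03, 0.96 and 295 TPM in A and 0, 0.08 and 3.49 TPM in B, a difference of only 0.86, with 12 A libraries above the highest of B. Cpe, the carboxypeptidase that trims the cleaved ends, had medians of 67.5 and 18.7 TPM, a difference of 1.80. Pam, which amidates peptides and had the highest B median of the list, had 35.4 and 36.4 TPM, a difference of -0.04. Vgf was separate at low levels, with a difference of 1.64, and Scg2 had 3.13 with 23 of 31 A libraries above the highest of B. Pcsk2 was the gene under the filter, with medians of 0.91 and 0.065 TPM.

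Most transcription factors of neuroendocrine and neural cells were low in B. Of 19 listed, 14 passed the filter, and of these 11 had B medians under 1 TPM, the others being Hes6, Isl1 and Mycl with 8.22, 2.87 and 40.5 TPM. Of the 14, 12 were at least 2-fold higher in A, 1 lower and 7 separate, with a median difference of 2.996 (2.86 to 6.02 over the alternatives). Factors low in B passed the filter through side A, and of all 19 listed 13 were higher and 1 lower. Insm1, a zinc finger factor of endocrine cells, had 12.7, 27.98 and 53.7 TPM in A and 0, 0.01 and 0.08 TPM in B, a difference of 4.84. Every A library held it at over 10 TPM and no B library reached 1 TPM. Sox11, a factor of neural progenitors, had 0.93, 36.1 and 102.4 TPM in A and 0.01, 0.075 and 0.27 TPM in B, a difference of 5.11. Only W4419 was under 1 TPM in A.

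Prox1, Myt1, Mycn and St18, factors of neural and endocrine development, were separate with differences of 4.58, 4.30, 3.98 and 3.80. Mycl, a relative of Myc, was the gene at least 2-fold lower in A. It had 2.74, 6.02 and 59.99 TPM in A and 1.49, 40.5 and 98.2 TPM in B, a difference of -2.56. No A library was under the lowest of B. Isl1 was also lower but short of 2-fold, with a difference of -0.365. Neurod1, Neurog3, Nkx2-1, Nkx2-2 and Onecut2 were under the filter, with A medians of 0.31, 0.05, 0.24, 0.54 and 1.01 TPM.

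The repressor REST, which silences neuronal genes outside the nervous system, was lower in A. Rest had 0.13, 0.79 and 4.78 TPM in A and 1.96, 5.66 and 13.6 TPM in B, a difference of -1.90, and 28 of 31 A libraries were under the lowest of B. Of 12 genes for neural splicing and REST that passed the filter, of 13 listed, 9 were at least 2-fold higher in A, 1 lower and 7 separate, with a median difference of 3.32 (3.06 to 5.30 over the alternatives). As 8 of the 12 had B medians under 1 TPM, they passed the filter through side A, yet of all 13 listed 10 were higher. Celf4, a splicing factor of neurons, had 7.56, 32.98 and 46.1 TPM in A and 0.09, 0.265 and 0.72 TPM in B, a difference of 4.75. Nova1, Elavl3, Celf3, Srrm3 and Rbfox1, which also act on neuronal transcripts, were separate with 4.24, 3.97, 3.70, 3.49 and 2.86.

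Srrm4, which splices Rest itself in neurons, was under the filter, with 0.6, 2.22 and 6.50 TPM in A and 0.01, 0.05 and 0.29 TPM in B. Ptbp2, the neural form of a splicing repressor, had a difference of 2.56, while Ptbp1, its form outside neurons, had 0.37. The corepressor genes Rcor1 and Rcor2 had 0.84 and 3.16, so of the pair the neural Rcor2 set the sides further apart.

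Genes of the synapse and the axon were higher in A. Of 20, 19 were at least 2-fold higher, none lower and 11 separate, with a median difference of 3.02 (2.75 to 4.83 over the alternatives). As 13 of the 20 had B medians under 1 TPM, they passed the filter through side A, although the filter left out no listed gene. Snap25, a SNARE protein that fuses vesicles with the membrane, had 17.02, 48.5 and 252 TPM in A and 0, 0.125 and 3.20 TPM in B, a difference of 5.46. Tubb3, a neuronal tubulin, had 9.11, 41.8 and 127 TPM in A and 0, 0.245 and 6.46 TPM in B, a difference of 5.10. Uchl1, a ubiquitin hydrolase of neurons and endocrine cells, and Syt1, the calcium sensor of vesicle release, were separate with 4.91 and 4.86. Vamp2 and Rab3a, vesicle proteins of wider use, had the smallest differences, 0.99 and 1.02. The summed list had 263, 558 and 984 TPM in A and 13.9, 34.2 and 90.1 TPM in B, and these sums did not overlap.

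Notch genes showed no common direction. Of 12 that passed the filter, of 14 listed, 4 (33.3%) were at least 2-fold higher in A, 2 (16.7%) lower and none separate, shares not far from those of all genes, with a median difference of 0.55. Hes1, a repressor that Notch signals induce, had 0.65, 3.27 and 10.2 TPM in A and 5.38, 13.8 and 27.9 TPM in B, a difference of -1.79, with 22 A libraries under the lowest of B. Notch2, a receptor, had a difference of -1.45. Hey1, another target of Notch, had 2.09, with 30 of 31 A libraries above the highest of B, and the ligand genes Jag2, Dll4 and Dll1 had 1.27, 1.18 and 1.05. Dll3, a ligand-like protein of neuroendocrine cells, was under the filter, with 0.41, 0.98 and 6.87 TPM in A and 0, 0 and 0.05 TPM in B.

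**Figure D4:**
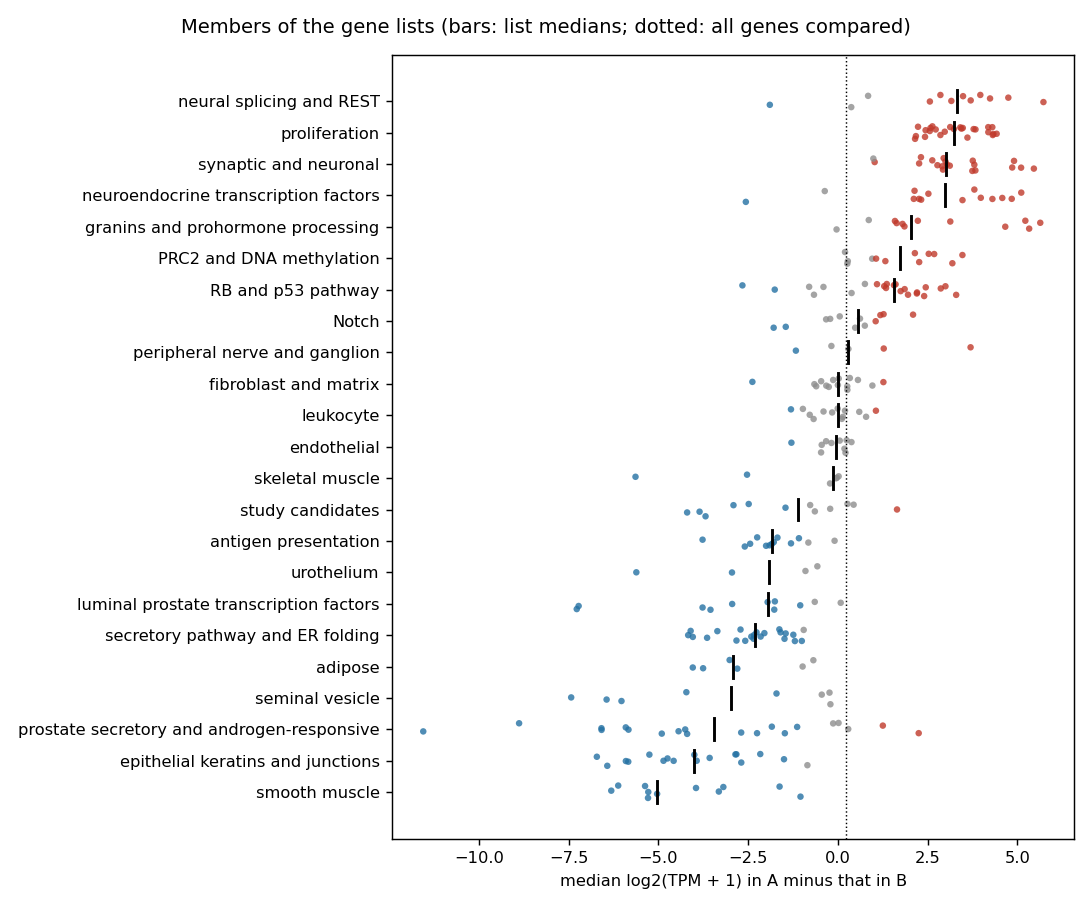
Difference of medians, A minus B on the log2 scale of TPM plus 1, for each gene of 23 lists, with a point per gene and a mark at the list's median. The medians of the proliferation, granin, neural and synaptic lists lie above 0.23, the median of all genes. Those of the luminal, secretory, keratin and smooth muscle lists lie below 0. Single members fall on the other side in the granin, neural, luminal and prostate secretory lists.

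Factors that define luminal cells were lower in A with 2 exceptions. Of 11 that passed the filter, of 12 listed, none was at least 2-fold higher and 9 were at least 2-fold lower, with a median difference of -1.96 (-3.50 to -1.81 over the alternatives). Spdef, an ETS factor of secretory epithelium, had 0.06, 0.17 and 5.19 TPM in A and 3.13, 14.96 and 29.4 TPM in B, a difference of -3.77, with 29 of 31 A libraries under the lowest of B.

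The exceptions were Foxa1 and Hoxb13, which open and pattern prostate chromatin. Foxa1 had 5.21, 12.99 and 30.97 TPM in A and 0.48, 12.2 and 45.7 TPM in B, a difference of 0.08. Hoxb13, a homeobox gene of the posterior body, had 1.37, 40.1 and 100.6 TPM in A and 0.02, 63.3 and 138 TPM in B, a difference of -0.64. Both ranges overlapped widely, and every A library held at least 1.37 TPM of Hoxb13. Of the rest, Ehf was separate without the 3 libraries, and Gata3 and Grhl2, factors of epithelia, had -3.55 and -2.94.

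Secreted and androgen-responsive genes were mostly lower in A, with wide ranges on both sides. Of 20, 15 were at least 2-fold lower, 2 higher and none separate, with a median difference of -3.45 (-4.57 to -3.23 over the alternatives). Without the 3 libraries, 2 were separate and lower, Man1a and Dnajc10, beside 1.51% of all genes. Those libraries were left out on prostate genes, Tgm4 of this list among them, so these 2 calls depend on that choice and add no support. Defb50, a defensin of the prostate, had 0.26, 2.43 and 4984 TPM in A and 0.07, 1615 and 15119 TPM in B, a difference of -8.88. Tmprss2, a protease gene that androgen induces, had 0.01, 0.12 and 17.9 TPM in A and 11.7, 62.8 and 98.04 TPM in B, a difference of -5.83, with 28 A libraries under the lowest of B. The summed list had 47.6, 85.1 and 7732 TPM in A and 94.5, 13134 and 168601 TPM in B.

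The genes of the list at least 2-fold higher in A were Sbp, a spermine-binding protein of the ventral prostate, with a difference of 2.25, and Ndrg1, with 1.25. For Sbp the lowest, median and highest were 0.04, 7.33 and 676 TPM in A and 0, 0.75 and 92090.3 TPM in B, so the highest values were in B although the median was higher in A. Spink1, a secreted protease inhibitor, had 0.13, 4.76 and 614 TPM in A and 0, 3.73 and 57154 TPM in B, a difference of 0.29. Fkbp5, a target of the androgen and glucocorticoid receptors, had -0.13, with medians of 10.3 and 11.4 TPM.

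The machinery for protein folding in the ER was lower in A. Of 22 genes, 21 were at least 2-fold lower, none higher and none separate, with a median difference of -2.30. Hspa5, the main chaperone of the ER and the gene of the list with the highest B median, had 64.9, 128 and 543 TPM in A and 167, 841 and 4410.0 TPM in B, a difference of -2.71, and 21 of 31 A libraries were under the lowest of B. Creld2 (ENSMUSG00000023272, chr15:88819646-88826683), an ER protein induced by stress, had 4.97, 10.9 and 109.1 TPM in A and 14.6, 213 and 1284 TPM in B, a difference of -4.17. Pdia6 (ENSMUSG00000020571, chr12:17266545-17284770), a disulfide isomerase, had 15.7, 40.99 and 301 TPM in A and 43.04, 719.8 and 1428 TPM in B, a difference of -4.10. For each of the 3 genes the ranges overlapped.

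Without the 3 libraries, 214 of all genes compared (1.51%) were separate and lower, among them 5 genes of the list. The 5 were Pdia3, Pdia6, P4hb, Dnajc3 and Sec11c, with differences of -2.26, -4.12, -2.89, -3.37 and -2.34. These add or shuffle disulfide bonds, assist Hspa5 or remove signal peptides. Canx, a lectin chaperone, had the smallest difference, -0.95, and stood just short of 2-fold. The RNA of the signal recognition particle, which brings ribosomes to the ER, was also lower in A by its share of TPM, as given above.

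The promoters of Creld2 and Pdia6 are shown because the words CCAAT and CCACG lie at the spacing of the ER stress element in some genes of the list. The promoters and the spacing were chosen after the values were seen.
Creld2 (chr15:88819396-88819695, plus strand): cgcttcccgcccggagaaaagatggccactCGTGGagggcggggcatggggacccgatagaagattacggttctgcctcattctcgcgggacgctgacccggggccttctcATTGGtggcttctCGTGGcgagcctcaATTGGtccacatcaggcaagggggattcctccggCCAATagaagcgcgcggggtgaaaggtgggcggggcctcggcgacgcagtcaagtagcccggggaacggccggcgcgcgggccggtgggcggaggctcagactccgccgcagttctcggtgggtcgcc
Pdia6 (chr12:17266339-17266638, plus strand): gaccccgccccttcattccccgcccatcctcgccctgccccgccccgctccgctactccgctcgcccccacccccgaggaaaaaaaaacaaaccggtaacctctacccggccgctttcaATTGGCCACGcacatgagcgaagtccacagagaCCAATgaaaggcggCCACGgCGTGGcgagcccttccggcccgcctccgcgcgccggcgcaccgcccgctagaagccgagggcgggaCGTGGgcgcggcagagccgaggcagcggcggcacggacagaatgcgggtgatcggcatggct
Creld2 held 3 words of the CCAAT box and 2 of CCACG in either orientation, and Pdia6 held 2 and 4. A promoter was matched for 18 of the 22 genes, of which 16 (88.9%) held CCAAT and 16 (88.9%) held CCACG, beside 37.9% and 32.7% of all promoters and 38.7% and 47% of the genes compared. In 7 of the 18 (38.9%), the words CCAAT and CCACG stood on the same strand with 9 bases between them, among them Creld2 and Pdia6, beside 35 of 27025 promoters (0.13%) and 15 of 10076 among the genes compared (0.149%). Of the 634 promoters of separate genes higher in A, 1 held that arrangement (0.158%). Among the 167 matched genes of the 214 separate and lower without the 3 libraries, 2 did (1.2%). The CHR word was in 0 of the 18 promoters of the ER list.

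Keratins and junctions of epithelium were lower in most A libraries. Of 17 genes, 16 were at least 2-fold lower, none higher and none separate, with a median difference of -3.998 (-6.08 to -3.55 over the alternatives). Krt8, a keratin of luminal cells, had 0.14, 1.86 and 287 TPM in A and 77.97, 170.5 and 357 TPM in B, a difference of -5.91, with 26 of 31 A libraries under the lowest of B. Cdh1, the E-cadherin of epithelial contacts, had 0, 0.18 and 50.8 TPM in A and 16.1, 43.9 and 112.7 TPM in B, a difference of -5.25, with 29 under the lowest of B. Levels in A were graded, and 11 of 31 libraries had Krt8 at 10 TPM or more. Epcam, an adhesion protein of epithelia, kept an A median of 10.7 TPM beside 138 TPM in B.

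Basal genes were near 0 in A and lower there than in B. Krt5, Krt14 and Trp63, which mark basal cells, had B medians of 5.85, 6.59 and 2.09 TPM and A medians of 0.06, 0.07 and 0.09 TPM, differences of -2.69, -2.83 and -1.50. Krt15, another basal keratin, had medians of 16.3 TPM in B and 0.08 TPM in A. Cldn4 and Cldn7, claudins of tight junctions, had differences of -6.42 and -4.86, and Cldn3 was separate without the 3 libraries with -4.77. Esrp1, which splices epithelial isoforms, had -3.93. The smallest difference in the list was that of Krt17, -0.85.

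Smooth muscle genes were lower in A, and their part in the other results was not tested. All 11 genes were at least 2-fold lower, with a median difference of -5.04. None was separate with every library in, and 4 were without the 3 libraries, beside 1.51% of all genes. Cnn1, the calponin of contractile cells, had 0.06, 0.56 and 44.2 TPM in A and 13.2, 123 and 295 TPM in B, a difference of -6.31. Summed over the list, A had 7.88, 26.97 and 639 TPM and B 134, 1297 and 2966 TPM, and Tagln, an actin-binding protein, had the highest median on each side. The ranges of the sums overlapped.

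Fibroblast, endothelial and leukocyte genes differed little in their medians. Of 15 fibroblast and matrix genes, 1 was at least 2-fold higher in A and 1 lower, with a median difference of 0.00. Their sums were 50.98, 318 and 1049 TPM in A and 105.3, 391 and 7842 TPM in B. Dcn, a matrix proteoglycan, was the gene that was lower, with a difference of -2.38, and it had the highest median in B, while Col3a1 had the highest in A. Of 10 endothelial genes, none was higher and 1 lower, Emcn, with -1.29, and the median difference was -0.06. Their sums were 4.96, 19.95 and 103.97 TPM in A and 7.49, 26.8 and 155 TPM in B, and the gene with the highest median was Vwf in A and Emcn in B.

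Of 13 leukocyte genes that passed the filter, of 19 listed, 1 was higher, Cd68 of macrophages, with 1.06, and 1 lower, Cd14, with -1.31. The median difference was -0.01, and the sums were 25.96, 165 and 681 TPM in A and 25.03, 135 and 1559 TPM in B, led by Lyz2, the lysozyme of myeloid cells. Cd3g, Gzmb and Nkg7 of T and cytotoxic cells were low on both sides and lower in A, but short of 2-fold. Their medians were 0.16, 0.06 and 0.12 TPM in A and 1.28, 0.825 and 0.79 TPM in B, with differences of -0.97, -0.78 and -0.68. The T cell genes Cd3e, Cd4 and Cd8a were under the filter, with differences of -0.108, 0.337 and 0.101, so genes of these cells shared no direction. The part of these cell types in the results was not tested.

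Antigen presentation was lower in A although the leukocyte list was not. Of 13 genes that passed the filter, of 14 listed, 11 were at least 2-fold lower and none higher or separate, with a median difference of -1.84. B2m, the light chain of class I molecules, had 12.6, 96.8 and 2567 TPM in A and 349, 1333 and 4978 TPM in B, a difference of -3.77, and 27 of 31 A libraries were under the lowest of B. H2-K1, a class I heavy chain, had a difference of -2.59, and Tapbp, which helps to load peptides on class I molecules, -2.25. Nlrc5, an activator of class I genes, had -0.09, with medians of 1.11 and 1.25 TPM.

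Genes typical of tissues beside the prostate had higher sums in B by the median, and the source of their RNA was not tested. Of 8 seminal vesicle genes, 5 were at least 2-fold lower in A and none higher, with a median difference of -2.97. Their sums were 1.49, 5.27 and 242.4 TPM in A and 1.92, 1301 and 172575 TPM in B, with Svs5 leading in B, so the highest B libraries exceeded every A library by far. Of 6 adipose genes, 4 were lower and none higher, with a median difference of -2.91, sums of 8.39, 26.7 and 259 TPM in A and 6.45, 169 and 3867 TPM in B, and Fabp4 as the gene with the highest median on each side.

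Of 4 urothelial genes that passed the filter, of 6 listed, 2 were lower and none higher, with a median difference of -1.93 (-3.91 to -1.39 over the alternatives). Their sums were 0.1, 2.21 and 117 TPM in A and 1.28, 82.8 and 164 TPM in B, where Upk1b led. Of 6 skeletal muscle genes that passed, of 7 listed, 2 were lower and none higher, with a median difference of -0.13. The sums were 0.47, 2.89 and 449 TPM in A and 0.78, 105.6 and 2974 TPM in B, led by Acta1. The part of these tissues in the results was not tested.

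Markers of nerves and ganglia, which also express neural genes, varied, and their sum was higher in A by the median. The part of these tissues in the results was not tested. Of 5 genes of nerve and ganglion that passed the filter, of 10 listed, 2 were at least 2-fold higher in A and 1 lower, with a median difference of 0.29 (0.23 to 1.13 over the alternatives). Th and Dbh, which make catecholamines in sympathetic neurons, had A medians of 0.36 and 0.08 TPM, and Sox10 of glia had 0.11 TPM. The 2 higher genes were Prph, a neuronal filament, with 2.73, 23.8 and 74.6 TPM in A and 0.15, 0.915 and 8.12 TPM in B, a difference of 3.70, and Pmp22, with 1.28. The sums were 11.8, 44.2 and 118 TPM in A and 3.76, 10.7 and 54.2 TPM in B, and the gene with the highest median was Prph in A and Pmp22 in B.

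The study's own candidate genes, most of which were selected on libraries of this series and are therefore not independent, were set beside the sides. Of 12 that passed the filter, of 15 listed, 1 was at least 2-fold higher in A and 6 lower, with a median difference of -1.12 (-1.50 to -1.03 over the alternatives). Dnajc10, a disulfide reductase of the ER, had 12.4, 20.3 and 129.95 TPM in A and 8, 390.2 and 684 TPM in B, a difference of -4.20, and was separate without the 3 libraries. Rnf149, a ubiquitin ligase that is listed as the counterpart of the selected transcript Gm15832, had 4.30, 8.61 and 49.2 TPM in A and 9.18, 138 and 339 TPM in B, a difference of -3.85, and Gm15832 itself had -1.46. Ccdc115 had a difference of 0.27, close to that of all genes, and Nup35, of the nuclear pore, was the gene that was higher, with 1.65. Styxl1 was under the filter, with medians of 0.04 and 0.09 TPM.

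Within side A, the factors differed in how many libraries held them. Insm1, Prox1 and Hes6 were at 10 TPM or more in all 31 libraries, Sox11 in 30, Myt1 in 28, Mycn in 26, and St18 and Lhx2 in 18 each. Onecut2 reached 10 TPM in none. Foxa2 and Pou3f2 were at 10 TPM or more in 7 libraries each, Sox2 in 10, and Neurod1 and Nkx2-2 in 1 each. Foxa2, a forkhead factor of endoderm, was under 1 TPM in 12 libraries and reached 62.9 TPM in W1182. The SD on the log2 scale over the 31 libraries was 1.81 for Foxa2, but 0.59 for Insm1 and 0.48 for Prox1.

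Other genes were counted in the 7 libraries with Foxa2 at 10 TPM or more and in the rest of A. Pou3f2, a POU factor of neurons, was at 10 TPM or more in 0 of these 7 and in 7 of the other 24. Krt8 was at 20 TPM or more in 5 of the 7 and in 4 of the other 24, Pcsk1 at 10 TPM or more in 5 and 1, and Sox2 in 3 and 7. The limits of 10 and 20 TPM were chosen after the values were seen, so these counts carry no test.

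Single libraries show the range. W1182, with the highest Foxa2, had Hes6 at 405, Krt8 at 287 and Mycn at 2.82 TPM. W4120 had the highest Mycn, 129 TPM. W1065 held the highest Neurod1, 16.1 TPM, beside Pcsk1 at 295 and Chga at 479 TPM. W4356 had Foxa2 at 0.05 and Pou3f2 at 0.1 TPM, so that neither factor reached 1 TPM while Insm1 stood at 12.7 TPM. W4419 had, beside its prostate RNA, the lowest Top2a of A, 96.2 TPM, and the highest Rest, 4.78 TPM.

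**Figure D5:**
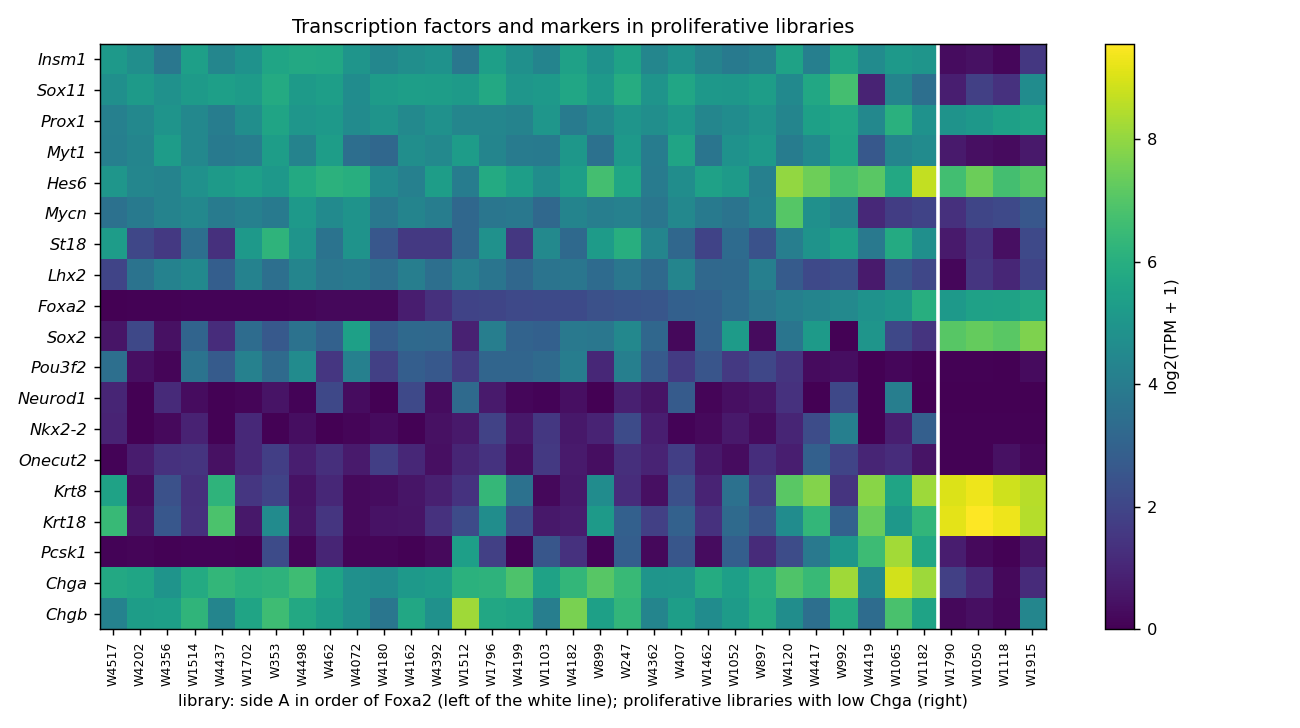
Levels of factors and markers as log2 of TPM plus 1, by color, in the 31 libraries of side A in order of Foxa2 and, right of the white line, in the 4 libraries with Mki67 over 30 but Chga under 10 TPM. The 7 libraries with Foxa2 at 10 TPM or more include 0 of the 7 with Pou3f2 at that level.

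Relations between genes within a side did not enter the rule, apart from the limits on Mki67 and Chga, and were tested by 2-sided permutation of 100000 resamples on log2 of TPM plus 1. Of 20 pairs, 12 in A and 8 in B, r was not computed for 8 because Foxa2 in A or Tgm4 in B split the side into clusters. Of the 12 computed, 7 had an adjusted p of r under 0.05 after Benjamini-Hochberg correction, 4 in A and 3 in B, of which 5 are given here. The labels give no batch within which to recompute them.

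In A, Rest and Chgb were inversely related over 31 libraries, with r = -0.465 (p = 0.00893, adjusted p = 0.0179) and rho = -0.37 (p = 0.0413, adjusted p = 0.0672). Without the 2 libraries farthest out in Rest, r was -0.303, and over the alternatives the adjusted p ranged from 0.00523 to 0.309. For Top2a and Chgb, r was 0.399 (p = 0.0278, adjusted p = 0.0477) and rho 0.356 (p = 0.0504, adjusted p = 0.0672), with r = 0.31 without 2 libraries and adjusted p from 0.0215 to 0.402 over the alternatives. Neither relation held under every choice, and neither rho passed the correction. Ptprc of leukocytes and Col1a1 of fibroblasts had r = 0.824 and rho = 0.865, both with p = 1e-05, the smallest the resamples can give, and adjusted p = 4e-05. Without 2 libraries r was 0.846.

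Among the relations in A that did not pass, Insm1 and Chgb had r = 0.273 (p = 0.137, adjusted p = 0.165) and rho = 0.392 (p = 0.0304, adjusted p = 0.0607), and r = 0.573 without 2 libraries. Tgm4 had r = -0.309 with Chgb (p = 0.0957, adjusted p = 0.128) and r = 0.311 with Col1a1 (p = 0.0854, adjusted p = 0.128), with rho of -0.0879 (p = 0.637, adjusted p = 0.695) and 0.357 (p = 0.0477, adjusted p = 0.0672). Without 2 libraries, r was 0.0129 and 0.234 for the pairs of Tgm4.

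In B, over 58 libraries, Ptprc and Col1a1 had r = 0.721 and rho = 0.6, both with p = 1e-05 and adjusted p = 4e-05, and r = 0.562 without 2 libraries. Ptprc and Top2a had r = 0.469 (p = 0.00021, adjusted p = 0.000552) and rho = 0.504 (p = 0.0001, adjusted p = 0.0003), and r = 0.468 without 2 libraries. Over the alternatives, the adjusted p of that r ranged from 0.000288 to 0.285. Whether any relation differed between the sides was not tested.

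The 26 libraries on neither side were varied. Along the 882 genes separate and higher in A, a library's position was taken as the percent of the way from the B median to the A median, as a median over genes. It ran from -5.47 in W5003 to 89.3 in W1915. In 21 of the 26 libraries it was at most 36.7, and in the other 5 it was 69.8 to 89.3. These 5 were W370, with Chga at 115.2 TPM, and the 4 with Mki67 over 30 but Chga under 10 TPM.

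Those 4 libraries, W1050, W1118, W1790 and W1915, were proliferative with low Chga and kept epithelial keratin. Their lowest, median and highest Top2a were 223, 290.2 and 339.8 TPM, within the range of A, while Chga was 0.15, 1.19 and 2.55 TPM. Chgb was 0.12, 0.225 and 20.1 TPM, the highest in W1915 and within the range of A. Insm1 was 0.11, 0.28 and 1.91 TPM, under every library of A, as was Myt1 at 0.2 to 0.6 TPM. Other listed factors were within the range of A, with Prox1 at 28.9 to 46.3, Hes6 at 100.5 to 167 and Mycn at 1.49 to 5.09 TPM. Sox11 was 23.8 TPM in W1915 and at most 2.49 TPM in the others. Krt8 was 369, 496 and 630.5 TPM, above every library of both sides. Foxa2 was 33.7, 43.6 and 53.97 TPM and Sox2 134, 146 and 209.7 TPM, the latter also above every library of both sides. Tgm4 was at most 5.43 TPM, within the range of A. Hoxb13 at 0.04 to 0.15 TPM and Foxa1 at 0.05 to 0.22 TPM were under every library of A, and Rest at 13.9 to 15.4 TPM was above every library of both sides.

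W370 had Foxa2 at 47.7, Insm1 at 33.4, Krt8 at 310.5 and Top2a at 126 TPM. The 16 libraries with Mki67 from 10 to 30 and Chga under 10 TPM had a Top2a of 20.9, 32.4 and 50.6 TPM, between the medians of the sides. Their Tgm4 was 124, 2729 and 11263 TPM, within the range of B. Their Insm1 was at most 0.05 TPM. The 5 libraries with Mki67 under 10 and Chga of 1 or more TPM had Chgb of 0.45, 1.55 and 9.14 TPM and Insm1 of at most 0.02 TPM.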

How the data were processed

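Each of the 115 libraries was labelled with its own mouse, while the study's text counts fewer prostates. By the submitters' processing notes, reads were mapped with Bowtie2 2.2.5 to GRCm38 transcripts and quantified with RSEM 1.2.20, after base calling with CASAVA 1.8.2. The authors deposited TPM for 45699 genes, and the labels give a floor on read pairs but no count for each library. Names and positions came from GENCODE M21, which held 45136 of them. Genes on sex chromosomes were left out. Sides were compared on log2 of TPM plus 1, by medians and ranges, with no test. Genes named are the 10 separate protein-coding genes with the largest difference in each direction, with Mki67, Chga and genes known only by provisional names set aside (all 8 toward B, and 10 toward B without the 3 libraries), and members of 23 lists. Members and lists were chosen with earlier results of these data known. Some genes and pairs are not reported here. Correlations used 100000 permutations, and clusters were read from mixtures of normal distributions. Alternatives covered the pseudocount, 2 other scalings, filters, limits of the sides, left-out libraries, means and percentiles. The steps for the comparison of sides, the correlations and the clusters were tested on simulated data. All steps ran under Python 3.11.15 with scipy 1.17.1 for ranks, pandas 2.3.3 for tables, scikit-learn 1.9.0 for mixtures, numpy 2.4.6 and matplotlib 3.10.9.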

Additional observations from a re-analysis of the deposited data

How the results depend on the processing

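No paired analysis was possible because every library is labelled as its own mouse, under 1 common label, and no numbers pair mice across sides. The labels give a floor on read pairs but no depth for each library, so the precision of low values was not estimated. Of 4129 values of named genes under the alternatives, 3915 moved by less than the spread between libraries and none reversed. Of 350 list medians 329 did so, and of 68 counts 55 stayed within 1.5 times. Of the values on correlations, 85 kept their direction and call, 13 lost the call, 3 counts of pairs moved and 1 reversed. With a pseudocount of 0.1, list medians were 4.42 for granins, 6.02 for neuroendocrine factors, 5.30 for neural splicing, 4.83 for synaptic, -3.50 for luminal, -4.57 for secretory, -6.08 for keratin, -3.91 for urothelial and 1.13 for nerve genes, since the pseudocount bounds low values. With TPM rescaled without the 20 leading genes by share of TPM, they were 3.32 for granins, 4.58 for neuroendocrine factors, 4.48 for neural splicing, 3.94 for synaptic, -2.86 for luminal, -5.32 for keratin and -2.96 for urothelial genes, and 0.148% of genes were separate and lower. With median-of-ratios scaling they were 1.00 for the RB and p53 pathway, 1.23 for PRC2 and DNA methylation and -1.50 for the candidates, and 1.93% of genes were separate and lower. With side A limited to Mki67 and Chga of 50 TPM or more (17 libraries), 10% of genes were separate and higher and 0.734% lower, the granin median was 2.75, and r reversed to -0.0696 for Tgm4 and Col1a1. The granin medians of this paragraph are of the list with Chga, a gene of the rule. With side B limited to Mki67 under 5 and Chga under 0.5 TPM (33 libraries), 12% were higher and 0.0917% lower. Where the 10th percentile of a side had only to pass the 90th of the other, 19.1% were higher and 9.57% lower. Fewer libraries, or percentiles, make the rule easier to meet by construction, and the cause of the other shifts was not tested. Of the alternatives chosen after seeing the data, leaving out W1154 gave 0.134% lower, the Tgm4-rich A libraries 0.508%, both 1.51%, both and W4437 2.55% with a granin median of 2.49, and the B libraries with Tgm4 under 100 TPM 0.191%. Pairs past the correction numbered 4 without the Tgm4-rich A libraries, 4 also without W1154 and 4 also without W4437. Leaving out each of the 89 libraries in turn, separate genes ranged from 882 to 1194 (6.22% to 8.43%) higher and from 8 to 37 (0.0565% to 0.261%) lower, and genes past 2-fold from 3416 to 3511 higher and from 2132 to 2211 lower. The alternative of A without libraries whose Tgm4 exceeds the lowest of B was not run, since it would remove every A library.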

Other observations

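The library W1154 held 26 protein-coding genes at least 10-fold above every other library. Mucl2 led with 239393 TPM, where the highest other library had 16.7 TPM. Secretoglobin genes followed, with Scgb1b27 at 32549 TPM and Scgb2b26 at 6125 TPM, as did Crisp3, a cysteine-rich secretory protein, at 3256 TPM. Kallikreins of the cluster on chromosome 7 were also among them, with Klk1 at 6641, Klk1b26 at 2187, Klk1b9 at 781, Klk1b11 at 673 and Klk1b22 at 605 TPM. Outside this library, the highest values of these 5 kallikreins were 8.30, 0.54, 0.29, 0.48 and 0.33 TPM. In the same library, Pip, the prolactin-inducible protein, was 18771 TPM and Car6, a secreted carbonic anhydrase, 4889 TPM.

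The B library W4548 stood apart in another way. Its Col1a1 was 645 TPM and its Ptprc 45.1 TPM, the highest of B for both.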
